A study of Homo sapiens with 6 samples.

Results

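The clade B serpins SERPINB1, SERPINB6, SERPINB8 and SERPINB9 were read in 6 poly(A) RNA-seq libraries from 1 established human neuroblastoma line, Kelly, which the labels give as MYCN-amplified with genotype WT. In 3 libraries (siControl) the cells had received a control siRNA and in the other 3 (siMETTL3) an siRNA to METTL3, each by transient transfection and collected at 72 hours. The comparison is siMETTL3 against siControl, in a single line and with a partial, transient knockdown. METTL3 is the catalytic subunit of the enzyme complex that writes N6-methyladenosine on mRNA. The members are 4 listed genes of the 19923 in the count tables, and all 4 were found by symbol. SERPINB9 was chosen by its measured fold change in this same comparison, so its difference is described without a test, and the other members were listed for their family.

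Serpins are protease inhibitors that work as suicide substrates: the target protease cuts an exposed reactive loop, and the serpin then changes shape and traps the enzyme. Clade B serpins lack a conventional cleaved signal peptide and mostly stay in the cytosol and nucleus, where they guard a cell against proteases that leak or are delivered into it. SERPINB9 inhibits granzyme B, the protease that cytotoxic lymphocytes deliver into target cells. SERPINB1 inhibits the neutrophil granule proteases, SERPINB6 inhibits cathepsin G and some trypsin-like proteases, and SERPINB8 can inhibit furin.

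The genes SERPINB1, SERPINB9 and SERPINB6 lie side by side on the minus strand of chromosome 6, and SERPINB8 lies on the plus strand of chromosome 18. The spans counted (GRCh38) are chr6:2832332-2841959 for SERPINB1, chr6:2887270-2903309 for SERPINB9, chr6:2948159-2972165 for SERPINB6 and chr18:63970029-64019779 for SERPINB8. Each has 7 exons in its canonical transcript in GENCODE release 44. The coding sequences run from 1125 bp in SERPINB8 to 1140 bp in SERPINB1, and in aligned bases they are 71.8% to 73.3% identical among SERPINB6, SERPINB8 and SERPINB9 and 60.2% to 61.1% identical between SERPINB1 and the others. The 3′ untranslated regions differ far more in length, with 139 bp in SERPINB6, 1276 bp in SERPINB1, 2096 bp in SERPINB8 and 2893 bp in SERPINB9.

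As a description only, with no link to the responses tested, the 250 bases before the start sites of the chromosome 6 members are shown. They are from RefSeq (GRCh38.p14, minus strand, written 5′ to 3′), at chr6:2903310-2903559 for SERPINB9, chr6:2971568-2971817 for SERPINB6 and chr6:2841864-2842113 for SERPINB1. Capitals mark the letters TATAAA and GGGCGG on either strand. SERPINB6 has 4 listed starts, and the one listed first is shown, so its matches hold for that start only.
SERPINB9: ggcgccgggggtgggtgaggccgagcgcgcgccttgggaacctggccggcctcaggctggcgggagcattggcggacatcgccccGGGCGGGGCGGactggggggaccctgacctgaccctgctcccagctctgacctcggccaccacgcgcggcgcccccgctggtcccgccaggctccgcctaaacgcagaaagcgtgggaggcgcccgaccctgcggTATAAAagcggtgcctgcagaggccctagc
SERPINB6: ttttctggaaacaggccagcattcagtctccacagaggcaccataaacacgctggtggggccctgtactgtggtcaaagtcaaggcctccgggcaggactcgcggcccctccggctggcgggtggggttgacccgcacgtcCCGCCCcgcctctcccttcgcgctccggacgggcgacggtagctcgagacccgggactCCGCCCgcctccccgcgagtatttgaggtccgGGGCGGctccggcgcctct
SERPINB1: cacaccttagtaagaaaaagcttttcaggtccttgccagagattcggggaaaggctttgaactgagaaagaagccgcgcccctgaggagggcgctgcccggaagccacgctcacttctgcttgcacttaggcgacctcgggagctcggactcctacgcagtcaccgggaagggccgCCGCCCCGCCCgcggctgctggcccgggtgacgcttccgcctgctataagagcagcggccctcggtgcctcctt

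The SERPINB9 sequence holds 1 TATAAA, which begins 30 bases before the start, and 2 overlapping GGGCGG. The SERPINB6 sequence holds 3 GGGCGG and no TATAAA, and that of SERPINB1 holds 2 GGGCGG and no TATAAA. The SERPINB8 sequence, which is not printed, holds 2 overlapping TATAAA and no GGGCGG. Over the 17323 RefSeq promoters of tested genes, cut to the same 250 bases and searched on both strands, 6.57% hold TATAAA and 60.1% hold GGGCGG. The E-box CACGTG, bound by MYC family proteins, and the kappaB consensus were in none of the 4 members' sequences, and 7.82% and 11.8% of those 17323 promoters hold them. These matches describe letters only.

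All 4 members passed the filter on low counts. METTL3, the targeted gene, fell to a fitted 0.61 of its control level (log2 fold change -0.71, SE 0.070, edgeR FDR 4.68e-06), with 52.8 to 56.2 CPM (the count divided by the TMM-scaled library size) in siControl and 31.8 to 34.3 CPM in siMETTL3. Libraries held 15430000 to 21565013 counts. Of 15311 tested genes, 37.8% passed an FDR of 0.05, with 18.6% higher and 19.2% lower, and the median log2 fold change was -0.0021. The labels do not say whether replicates were separate transfections, so the p-values measure the spread between these libraries, which may be technical. In bulk RNA, fewer cells of a type and less RNA per cell cannot be told apart.

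SERPINB9 was the member with the greatest difference and, in every library, the most counts. It had 569, 622 and 371 counts in siControl replicates 1 to 3 and 2495, 2554 and 2480 in those of siMETTL3. As CPM these are 26.4, 31.1 and 24.6 against 121, 117 and 121, or 27.4 ± 3.37 and 119.8 ± 2.15 (SD, n = 3 each). The siMETTL3 libraries lay close together and all far above the siControl libraries. On the log2 scale the difference was 2.12 (SE 0.079), which is 4.36-fold. By size it stood at rank 48 of the 15311 tested genes, and at rank 2 among the 4093 genes with at least as high an average level. Groups that do not overlap were found for 49.9% of tested genes (24.8% with siMETTL3 higher), and rises of at least 2-fold past the threshold for 2.74%. These values chose the gene and support nothing further.

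The SERPINB9 count has a limit of its own. The counting set no strand option, and RefSeq lists the antisense lncRNA SERPINB9-AS1 at chr6:2883988-2900676, a span that covers 83.6% of the SERPINB9 span and 97.4% of the exonic bases of its canonical transcript. Reads of both genes cannot be told apart in these counts. In GENCODE release 44 no other gene overlaps SERPINB9. Stretches of 50 bases that also occur in transcripts of other genes made up 4.47% of its canonical transcript, all between bases 1731 and 1998, in the 3′ untranslated region.

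SERPINB6 rose with siMETTL3. It had 536, 469 and 302 counts in siControl and 845, 900 and 815 in siMETTL3. The CPM values were 24.9, 23.5 and 20.04 against 41.1, 41.3 and 39.7, with means of 22.8 ± 2.48 and 40.7 ± 0.885 (SD, n = 3 each). All siMETTL3 libraries were above all siControl libraries, among which replicate 3 was lowest. This is a 1.78-fold rise (log2 fold change 0.83, SE 0.088; edgeR quasi-likelihood test, FDR 9.33e-06). Its rank by size was 680 of 15311. No 50-base stretch of its canonical transcript occurs in a transcript of another gene, and no other gene of either annotation overlaps its span.

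SERPINB1, the inhibitor of neutrophil elastase, was expressed at a low level and did not pass the test. It had 30, 32 and 34 counts in siControl and 47, 40 and 40 in siMETTL3. The CPM values were 1.39, 1.602 and 2.26 against 2.28, 1.84 and 1.95, and the groups overlapped because siControl replicate 3 lay above siMETTL3 replicates 2 and 3. The difference on the log2 scale was 0.23 (SE 0.27, edgeR FDR 0.544). An approximate 95% interval from the SE runs from -0.31 to 0.77. It overlaps that of SERPINB6, which runs from 0.66 to 1.00. An overlap of intervals is no test of a difference, and whether SERPINB1 rose less than SERPINB6 was not tested. Rises inside the SERPINB1 interval are not resolved at this depth. Without siControl replicate 3 the log2 fold change was 0.43, and without siControl replicate 1 it was 0.087.

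SERPINB8 was the lowest member. It had 25, 18 and 15 counts in siControl and 18, 26 and 16 in siMETTL3, which is 1.16, 0.901 and 0.996 CPM against 0.875, 1.19 and 0.779 CPM. The groups overlapped. The difference on the log2 scale was -0.10 (SE 0.34, edgeR FDR 0.847), with an approximate 95% interval of -0.78 to 0.57. In this fit a rise as large as that of SERPINB6 lies outside the interval. The sign turned to 0.012 (SE 0.43) without siControl replicate 1 and to 0.021 (SE 0.39) without siMETTL3 replicate 3. Whether a rise as large as that of SERPINB6 is outside the interval thus depends on the libraries used. HMSD, which is in the tables, overlaps 23.6% of the SERPINB8 span and shares 370 exonic bases with it. HMSD had 6 to 18 counts per library, and a read in the overlap was counted for both genes. Of the 3 members with a test, 1 was thus called and it was higher, where 18.6% of all tested genes were.

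**Figure D1:**
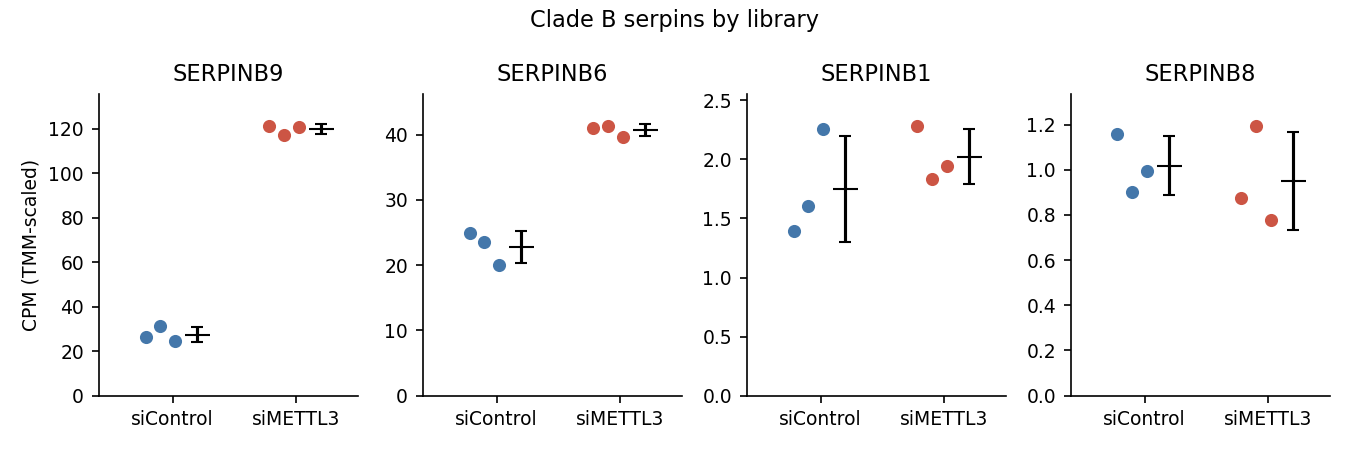
CPM of the 4 clade B serpins in each library (points, siControl and siMETTL3, 3 libraries each), with the mean and SD as black bars; each panel has its own axis from 0. The groups are apart for SERPINB9 (27.4 against 119.8 CPM) and SERPINB6 (22.8 against 40.7 CPM) and overlap for SERPINB1 and SERPINB8.

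**Figure D2:**
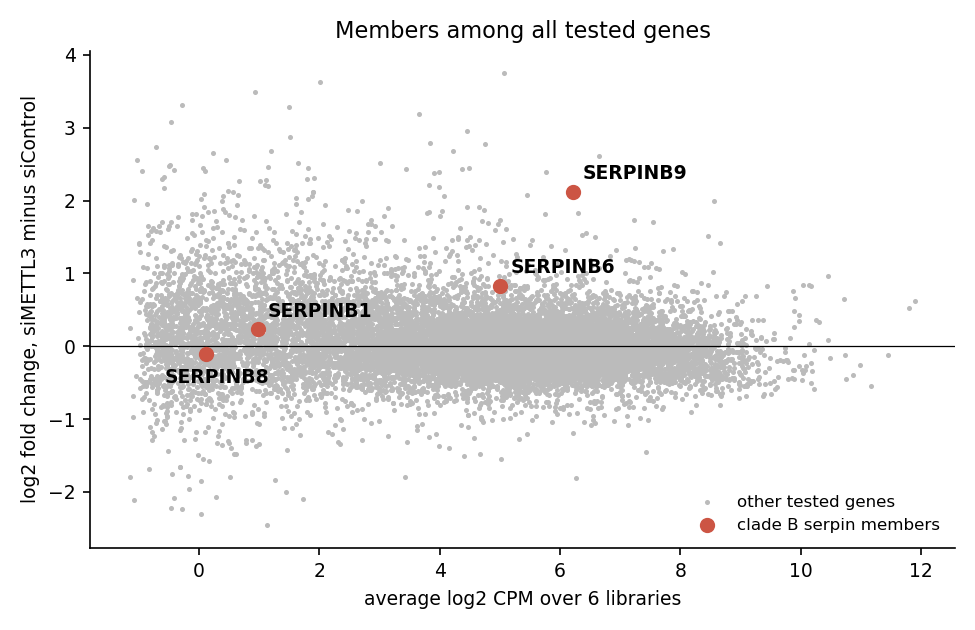
Log2 fold change (siMETTL3 minus siControl) against the average log2 CPM for the 15311 tested genes (grey), with the 4 members in red. SERPINB9 stands at 2.12 and SERPINB6 at 0.83, while SERPINB1 and SERPINB8 lie among the thinly counted genes on the left, near 0.

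Added together, the 4 members went from 52.9 ± 4.65 CPM in siControl to 163 ± 1.91 CPM in siMETTL3 (SD, n = 3 each), a ratio of 3.09. Within this sum SERPINB9, chosen for its rise, went from 27.4 to 119.8 CPM. The ratio and the shares that follow thus largely restate that choice. SERPINB9 made up 51.7% ± 2.74 of their summed counts in siControl and 73.3% ± 0.726 in siMETTL3. The share of SERPINB6 was 43.1% ± 2.76 and then 24.9% ± 0.628, although its own level rose. SERPINB1 and SERPINB8 together never held as much as SERPINB6 in any library.

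Levels of different members can be compared only per length, and the order depends on which length is used. Per kb of canonical transcript, SERPINB6 (1315 bp) was first in siControl, at 15.2 to 18.9 CPM per kb, ahead of SERPINB9 (4143 bp) at 5.94 to 7.51, SERPINB1 (2476 bp) at 0.562 to 0.911 and SERPINB8 (3321 bp) at 0.271 to 0.349. No neighbours in this order overlapped. In siMETTL3 the level per kb of canonical transcript was 30.2 to 31.4 for SERPINB6 and 28.3 to 29.3 for SERPINB9, a gap that was small beside the one in siControl. Per kb of gene span, the feature that was counted, SERPINB9 came first in both groups, with 1.71 ± 0.210 CPM per kb in siControl against 0.949 ± 0.103 for SERPINB6, and 7.47 ± 0.134 against 1.70 ± 0.0369 in siMETTL3.

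Since METTL3 methylates adenosines within a short consensus, the letters GGACT, one common form of it, were counted on the sense strand of the canonical transcripts. SERPINB9 holds 5, of which 4 lie in the 3′ untranslated region. Those outside the stretch shared with transcripts of other genes are printed with 10 bases on each side, GGACT in capitals and the first base of the match counted from the transcript start.
SERPINB9 base 96: cggcagcgctGGACTaggtggcagg
SERPINB9 base 2162: tgaccaggttGGACTgtttaatgtc
SERPINB9 base 2435: ccaaaggttgGGACTctgtcttaca
SERPINB9 base 2972: attcattgatGGACTttgggttgtt

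SERPINB8 also holds 5 matches, all in its 3′ untranslated region, SERPINB1 holds 2, and SERPINB6 holds none. As density this is 1.21 per kb in SERPINB9, 1.51 in SERPINB8, 0.808 in SERPINB1 and 0 in SERPINB6, against a median of 0.929 over the 14591 tested genes with a canonical transcript, of which 91.3% hold at least 1. Among transcripts of 0.8 to 1.2 times its length, 38.1% hold at least as many as SERPINB9 and 27.0% at least as many as SERPINB8. Methylation was not measured here, and any link between these matches and the differences of the members was not tested.

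The remaining clade B serpins were nearly silent. SERPINB2, SERPINB3, SERPINB4 and SERPINB10 had 0 counts in all 6 libraries, which allows up to 3 counts per library, or 0.138 to 0.199 CPM, for counting error only and if each count is a separate fragment. SERPINB5 (maspin) had 1 to 6 counts, SERPINB7 and SERPINB11 at most 4 and 5, and SERPINB12 and SERPINB13 had 2 counts in 1 library each. None of these 9 genes passed the filter on low counts. The clade B serpins that passed it in Kelly cells were the 3 of chromosome 6 and SERPINB8.

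Of 21 serpins of other clades, which are mostly secreted, 8 passed the filter, with a median log2 fold change of -0.27 against -0.0021 for all tested genes. None was called higher and 3 were called lower, or 37.5% called against 37.8% of all tested genes. SERPINF1 (pigment epithelium-derived factor) was at 41.3 ± 5.50 CPM in siControl and fell to 27.95 ± 2.59 CPM (log2 difference -0.57, edgeR FDR 0.000713). SERPINE2 (protease nexin-1, an inhibitor of thrombin and plasminogen activators) fell from 15.8 ± 2.30 to 10.5 ± 0.249 CPM (-0.59, edgeR FDR 0.00197), and SERPINE3 fell from 10.3 ± 0.616 to 6.78 ± 0.535 CPM (-0.61, edgeR FDR 0.00224).

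Of the 5 nearest genes on each side of the chromosome 6 serpins, 9 were tested, 1 was higher and 2 were lower, where 18.6% of all tested genes were higher and 19.2% lower. The higher one was NQO2 (chr6:2987987-3028869), a quinone reductase gene that starts 84.7 kb from SERPINB9 and is the next gene after SERPINB6. Its CPM values were 10.1, 9.36 and 7.43 in siControl and 13.2, 13.04 and 13.15 in siMETTL3 (log2 fold change 0.54, SE 0.13, edgeR FDR 0.00424). The siMETTL3 libraries were nearly equal and all above siControl.

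On the far side of SERPINB1, WRNIP1 was at -0.17 (edgeR FDR 0.0898; -0.24 and FDR 0.0103 without siControl replicate 1) and MYLK4, with 2 to 21 counts, at 0.74 (edgeR FDR 0.254). FOXC1, a forkhead transcription factor gene, fell (log2 fold change -0.86, edgeR FDR 0.00206), and FOXF2 had at most 2 counts. GMDS (-0.0051), RIPK1 (0.053), BPHL (-0.074) and TUBB2A (-0.025) were close to 0, with edgeR FDR values of 0.586 to 0.961. TUBB2B, a beta-tubulin gene, was called lower by a narrow margin (-0.17, edgeR FDR 0.0474). Its FDR was 0.152 without siControl replicate 1, 0.0852 without siControl replicate 2, and 0.0983, 0.166 and 0.101 without siMETTL3 replicates 1, 2 and 3.

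**Figure D3:**
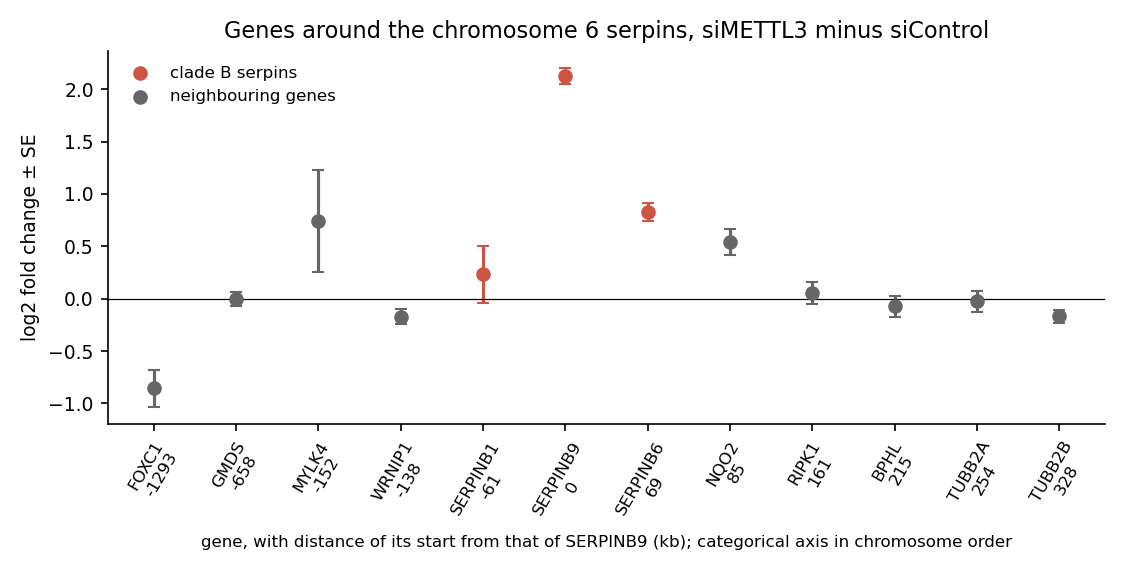
Log2 fold change with its SE for the tested genes in chromosome order around the chromosome 6 serpins (red, members; grey, neighbours), with the distance of each start from that of SERPINB9 in kb under the name. SERPINB9 (2.12), SERPINB6 (0.83) and NQO2 (0.54) are above 0, and RIPK1, the next gene, is at 0.053.

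Around SERPINB8, the 5 nearest genes on the lower side by start coordinate were HMSD and 4 other clade B serpins. These 4 serpins had at most 4 counts in a library. SERPINB11, with at most 5 counts, ends nearer to SERPINB8 than SERPINB3, which is among them. On the higher side DSEL rose from 6.70 ± 1.88 to 10.35 ± 0.693 CPM (log2 difference 0.63, edgeR FDR 0.0138), but its FDR was 0.0554 when siMETTL3 replicate 1 was left out and 0.0586 when replicate 3 was. CDH7 (0.30), TMX3 (-0.18) and CCDC102B (-0.10) were not past the threshold (edgeR FDR 0.116, 0.266 and 0.645), but without siControl replicate 1 TMX3 was at -0.32 with an FDR of 0.0065. HMSD itself was at 0.068 (edgeR FDR 0.931). CDH19 had at most 4 counts.

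The proteases that SERPINB9 and SERPINB1 are best known to inhibit had no or few counts. GZMB, which encodes granzyme B, and also GZMA, GZMH and CTSG (cathepsin G) had 0 counts in all 6 libraries, and ELANE (neutrophil elastase) had at most 2 and PRTN3 (proteinase 3) at most 5, both below the filter. PRF1, the pore-forming protein of cytotoxic granules, was the 1 gene of this list of 9 that passed the filter. It had 7, 2 and 4 counts in siControl and 12, 14 and 10 in siMETTL3 (log2 fold change 1.29, SE 0.55, edgeR FDR 0.0796). The groups do not overlap, at a very low level, as for 24.8% of all tested genes with siMETTL3 higher. Its siControl counts are all under the filter minimum of 10, so it passed only through the group where it is higher.

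Among 25 lysosomal cathepsins, caspases and furin-type convertases, 21 were tested, 5 were higher, 2 were lower and 14 were not past the threshold (33.3% called, against 37.8% of all tested genes; median 0.034 on the log2 scale). FURIN, which SERPINB8 can inhibit, was not past the threshold (15.9 ± 1.31 and 14.2 ± 0.483 CPM, log2 fold change -0.16, edgeR FDR 0.261). The related convertase PCSK5 rose from 17.4 ± 0.910 to 41.6 ± 0.960 CPM (log2 difference 1.255, edgeR FDR 1.07e-07). CASP9, the initiator caspase of the mitochondrial route, rose from 9.83 ± 1.01 to 18.3 ± 0.636 CPM (0.89, edgeR FDR 3.53e-05). CASP8, the initiator caspase of death receptors, rose from 1.48 ± 0.252 to 2.95 ± 0.426 CPM (1.00, edgeR FDR 0.00706). The lysosomal protease gene CTSC (dipeptidyl peptidase 1) fell (-0.37, edgeR FDR 0.000238). The number of lower genes went from 2 to 1 without siControl replicate 2 or siMETTL3 replicate 2, and to 4 without siControl replicate 3.

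A list of target-cell genes of granzyme B and death receptor killing holds 19 genes, some of them, such as CASP8, also in the protease list. Of its 18 tested genes 1 was higher, 6 were lower and 11 were not past the threshold (38.9% called, against 37.8% of all tested genes; median -0.059 on the log2 scale). The higher gene was CASP8. TNFRSF10B, a receptor for the death ligand TRAIL, was at 112 ± 8.86 CPM in siControl and fell to 71.95 ± 2.53 CPM (log2 difference -0.64, edgeR FDR 8.71e-06). FAS, the receptor of FAS ligand, fell from 2.75 ± 0.404 to 1.40 ± 0.217 CPM (-0.96, edgeR FDR 0.00987). BID, which granzyme B cleaves to engage the mitochondrial route, was at 103 ± 10.8 and 94.02 ± 3.17 CPM (-0.14, edgeR FDR 0.154), and XIAP, the inhibitor of executioner caspases, was at -0.0063 (edgeR FDR 0.944). The number of higher genes was 2 without siControl replicate 3.

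Of 15 other inhibitors, mainly of proteases (cystatins, calpastatin, TIMPs, Kunitz-type and BIRC proteins), 11 were tested, 3 were higher and 2 were lower (45.5% called, against 37.8% of all tested genes), with a median of -0.0063 on the log2 scale. CSTB (cystatin B), an intracellular cathepsin inhibitor, rose from 16.4 ± 1.30 to 21.5 ± 1.22 CPM (log2 difference 0.39, edgeR FDR 0.00619). CST3, the secreted cystatin C, fell from 20.6 ± 1.31 to 14.5 ± 0.952 CPM (-0.50, edgeR FDR 0.00130). The other calls depended on single libraries. TIMP2 (0.40, edgeR FDR 0.0298) was not past the threshold without siControl replicate 2 (FDR 0.0822) or without siMETTL3 replicate 1, 2 or 3 (FDR 0.0644, 0.0752 and 0.0750), nor with all 6 libraries and no filter on low counts (FDR 0.0618). BIRC5 (0.16, edgeR FDR 0.0280) was not past it without the same libraries (FDR 0.0669, 0.136, 0.0538 and 0.0889). CAST, or calpastatin (-0.28, edgeR FDR 0.0216), was not past it without siControl replicate 2 (FDR 0.0829) or siMETTL3 replicate 1 or 3 (FDR 0.121 and 0.0743). The number of higher genes was 1 and not 3 in those 4 fits.

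NF-kB is known to drive SERPINB9 in several cell types. Of 18 NF-kB subunits, inhibitors and common targets, 12 were tested and 1 was called, and the median was -0.070 on the log2 scale. The called gene was TNIP1, a brake on the pathway, which rose from 58.5 ± 7.67 to 77.8 ± 5.38 CPM (log2 difference 0.41, edgeR FDR 0.00308). The classical targets NFKBIA (-0.20, edgeR FDR 0.111) and SOD2 (-0.0010, edgeR FDR 0.991) were not past the threshold, and CXCL8 had 0 counts in every library. BIRC3, another target, was below the filter with 0, 2 and 2 counts in siControl and 4, 6 and 13 in siMETTL3, and the subunit gene RELB was at 0.77 (edgeR FDR 0.185). The share called was 8.33% here and 37.8% over all tested genes. NF-kB activity was not measured, and its part in the SERPINB9 difference was not tested.

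**Figure D4:**
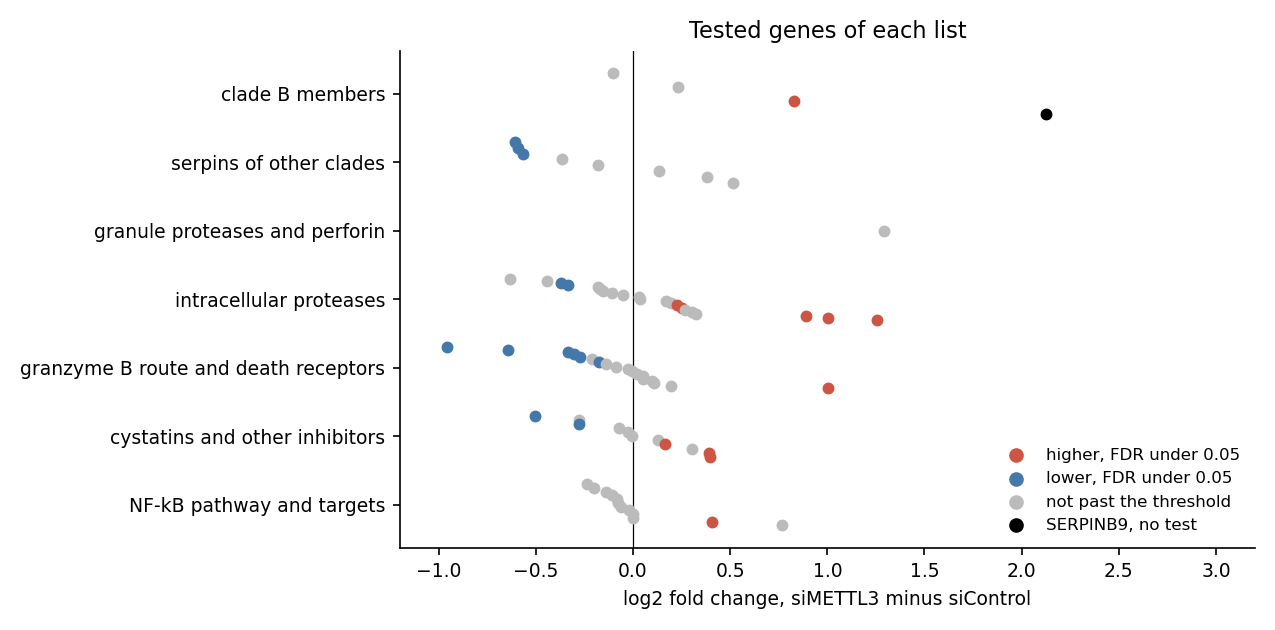
Log2 fold change (siMETTL3 minus siControl) of each tested gene of the lists, with genes past an FDR of 0.05 in red (higher) or blue (lower), others in grey and SERPINB9, which was not tested, in black. The called serpins of other clades are at -0.57 to -0.61, and those not called are at -0.37 to 0.52. SERPINB6 is at 0.83 and SERPINB9 at 2.12, while SERPINB1 (0.23) and SERPINB8 (-0.10) were not called.

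SERPINB9 is abundant in cytotoxic lymphocytes, so markers of other cell types were read in the same libraries. Of 9 lymphocyte markers, CD3D and MS4A1 had 0 counts in every library and 1 passed the filter. Their summed level was 3.85 to 4.96 CPM in siControl and 2.77 to 4.38 CPM in siMETTL3, nearly all of it from CD4. PTPRC (CD45), the defining leukocyte marker, had at most 8 counts in a library. The 6 myeloid markers summed to 69.7 to 76.9 CPM in siControl and 50.6 to 55.02 CPM in siMETTL3, of which CSF1R alone held 48.0 to 74.5 CPM across the libraries, while CD14, LYZ and TYROBP had at most 6 counts. The 10 sympathetic neuroblastoma markers were all expressed, with MYCN, the most abundant, at 2880 to 4743 CPM and DBH at 936 to 1411 CPM. Their summed level was 6395 to 6867 CPM in siControl and 9295 to 9901 CPM in siMETTL3. MYCN held the largest part of this sum, which does not give the direction of each other marker. The summed level of 4 endothelial markers was 5.64 to 7.001 CPM in siControl and 7.14 to 9.84 CPM in siMETTL3, that of 3 Schwann cell markers 2.59 to 3.43 and 3.99 to 5.51 CPM, and that of 6 fibroblast markers 85.3 to 99.2 and 87.2 to 93.8 CPM, most of it from PDGFRB. The part of these marker differences in the serpin values was not tested.

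To place the SERPINB9 pattern, log2 CPM profiles over the 6 libraries, each centred on its own mean, were compared with that of SERPINB9 by Euclidean distance among 12755 tested genes whose mean log2 CPM was 2 or more. The nearest were NTNG2 (distance 0.17), TMCC3 (0.20), MYO3B (0.23), PLXNA2 (0.32) and CDH13 (0.39), where the median distance was 2.65. NTNG2, which encodes a netrin-family membrane protein, was at 16.5 ± 1.80 and 69.9 ± 3.05 CPM, and PLXNA2, a semaphorin co-receptor gene, at 152 ± 9.60 and 604 ± 11.6 CPM. Their log2 fold changes were 2.08 and 1.99, against 2.12 for SERPINB9. Near values follow from the way these genes were picked and are a description only. SERPINB6 stood at rank 293, with a distance of 1.6. None of these 5 genes is a serpin.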

How the data were processed

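The authors deposited raw read counts per gene, 1 table per library. Per the file headers, counts were made with featureCounts 1.5.3 on a protein-coding subset of GENCODE release 33, over whole gene spans, with reads over several genes counted for each, with neither strand nor paired-fragment counting set. Per the submitters' processing notes, Trimmomatic 0.36 and HISAT2 2.1.0 were used, with GRCh38. Counts from 1 to 10 were even in 75.4% to 82.2% of genes per library, the pattern that counting both mates of a pair gives, so fewer fragments than counts may lie behind low values.

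Here, genes were filtered with filterByExpr (minimum count 10), scaled by TMM and tested with edgeR 4.0.16 in R 4.3.3 (glmQLFit and glmQLFTest, robust, all 6 libraries, no covariate). FDR values are Benjamini-Hochberg over 15311 genes, threshold 0.05. The SE is the absolute log2 fold change over the square root of F. CPM values use the TMM-scaled library size. Replicates differed by more than counting error (chi-square per degree of freedom 3.11 to 16.9). The fit was tested on simulated data, where the share of false calls exceeded the nominal level in some draws. Alternatives were other scalings, filters and tools, a replicate block and leaving out each library. Annotation came from GENCODE release 44 and RefSeq; the 4 members have the same spans in release 44.

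The members and lists were chosen with earlier results of these data known. Named genes were all clade B serpins, METTL3 and the called genes of each list (up to 6, otherwise the 3 largest in each direction). Also named were the 5 nearest genes on each side, by start coordinate, and the 5 genes nearest to SERPINB9 in pattern. FURIN, BID, XIAP, NFKBIA, SOD2, BIRC3, RELB and PRTN3 were named outside that rule, for their known roles and with their values seen. Some items that this rule names are not reported here.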

Additional observations from a re-analysis of the deposited data

How the results depend on the processing

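SERPINB6 and METTL3 kept their direction and stayed past the threshold under every alternative run (RLE, upper quartile and total count scaling, no filter, a minimum of 10 counts throughout, DESeq2 (1.42.0), limma-voom (3.58.1), no robust option, replicate block, each library left out). SERPINB9 kept its direction in all of them. With each library left out, the log2 fold change went from 2.06 to 2.23 for SERPINB9, from 0.75 to 0.90 for SERPINB6, from 0.087 to 0.43 for SERPINB1, from -0.31 to 0.021 for SERPINB8 and from -0.74 to -0.69 for METTL3. SERPINB1 and SERPINB8 were past the threshold in no fit (lowest FDR 0.269 and 0.621). The number of higher genes went from 2091 to 3178 and that of lower genes from 2119 to 3216. Deviations of libraries with equal replicate numbers correlated only weakly (0.0401, 0.0494 and 0.0671, against -0.0642 to 0.0263 for unequal numbers). Every library correlated best with its own number, as a hint only, so whether replicate numbers pair the libraries is not settled. With the replicate block the log2 fold change of SERPINB6 was 0.83, 6166 genes were called against 5786, and of the named genes WRNIP1 alone crossed the threshold (-0.17, FDR 0.0488).

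Among the 35 other named genes, none that was called changed sign. Those near 0 did, and the cause was not tested. GMDS went to 0.0076 (upper quartile), 0.019 (total count), 0.00093 (at least 10 counts) and 0.00052 (limma-voom), and HMSD to -0.0044 (limma-voom). With each library left out, GMDS ranged from -0.065 to 0.055, HMSD from -0.31 to 0.41, BPHL from -0.13 to 0.028, CCDC102B from -0.25 to 0.12, RIPK1 from -0.029 to 0.13 and TUBB2A from -0.11 to 0.017. With all 6 libraries, TUBB2B also lost its call in 5 alternatives and TIMP2 in 1 (no filter). The number of higher serpins of other clades was 1 and not 0 with upper quartile scaling, DESeq2, limma-voom, the replicate block, or without siControl replicate 1 or 3. Members with few counts, SERPINB1 and SERPINB8, are limited by depth.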
